A study of Mus musculus with 14 samples.

Results

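The expression of 34 astrocyte genes, 27 homeostatic and 7 reactive, was examined in the hippocampus of newborn mice with and without Gasdermin D (GSDMD), raised in room air (RA) or hyperoxia (O2). The genes were taken by symbol from the deposited table of 36118 genes, in which each symbol matched 1 Ensembl identifier, and all 34 passed the filter on low counts that left 16637 genes for testing. The homeostatic genes are Slc1a2, Slc1a3, Glul, Slc7a10, Slc25a18, Ppp1r3c, Aldoc, Acsbg1, Aldh1l1, Aqp4, Mlc1, Hepacam, Slc4a4, Atp1b2, Gja1, Gjb6, Cldn10, Slc39a12, Apoe, Clu, Agt, S100b, Sox9, Fgfr3, Ntsr2, Gpr37l1 and Ndrg2. The reactive genes are Gfap, Vim, Serpina3n, Lcn2, C4b, Osmr and Cd44.

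Polyadenylated RNA of 1 hippocampus sample per mouse was sequenced from 14 mice, collected at postnatal day 15 after an exposure that ran from postnatal day 1 to day 14. The 4 WT-RA mice were wild-type and kept in room air, and the 4 WT-O2 mice were wild-type and kept in 85% oxygen. The 3 KO-RA mice were GSDMD knockouts in room air, and the 3 KO-O2 mice were GSDMD knockouts in 85% oxygen. The study asked how loss of GSDMD alters the hippocampal response to hyperoxia, a model of the brain injury that accompanies lung disease of prematurity. All mice are labelled C57/BL6, and the study's methods give the knockout line as C57BL/6N, obtained from heterozygote matings, with wild-type littermates. The knockout is global and not restricted to 1 cell type, its allele carries a small deletion in exon 5 of Gsdmd, and it was tested as a single line. For WT-O2 mouse 4 the title of the public record gives hyperoxia while its treatment field gives room air. It was analysed as WT-O2, which the column name in the table also gives. Mice are numbered here within each group in the order of their records, and these numbers pair no mice across groups. The mouse identifiers of all WT records precede those of all KO records, so genotype and the range of identifiers cannot be told apart.

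Astrocytes clear glutamate from synapses through the transporters GLAST (Slc1a3) and GLT-1 (Slc1a2) and convert it to glutamine with glutamine synthetase (Glul). They also hold the brain's glycogen, buffer water and ions through channels at their vascular endfeet, and supply neurons with lipoproteins. After injury or inflammation they become reactive, which is commonly read from the intermediate filament GFAP and from secreted factors such as Serpina3n and lipocalin 2 (Lcn2).

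Library totals ranged from 27272270 to 28257496 estimated counts. Gsdmd had 41 to 63 counts in the WT libraries and 22 to 42 in the KO libraries, a sum over transcripts that does not show whether they carry the deletion. The 9 hippocampal marker genes were all detected. Their summed levels were 566.97 to 959.25 counts scaled to a common library size (CPM) in WT and 1228.3 to 1550.2 in KO libraries. Against WT mice at the same exposure, the knockouts had all 9 called higher in room air and 4 called higher under hyperoxia. Of all genes tested, 3.75% were called higher in room air and 2.51% under hyperoxia. Markers of neighbouring regions were also present and differed between the genotypes. The 9 striatal markers, among them Drd1, Drd2 and Adora2a, summed to 294.58 to 711.37 CPM in WT and 75.289 to 180.2 in KO. All 9 were called lower in both genotype comparisons. Of all 16637 genes tested, 1114 were called lower in KO-RA vs WT-RA and 724 in KO-O2 vs WT-O2. The 9 thalamic markers, among them Tcf7l2 and Prkcd, summed to 111.2 to 745.61 CPM in WT-RA, 263.9 to 583.67 in WT-O2, and 155.44 to 176.44 in KO. Although the KO sums lay inside the WT-RA range, all 9 markers had negative fold changes in both genotype comparisons. Of these 9, 6 were called lower in KO-RA vs WT-RA and 5 in KO-O2 vs WT-O2. Gbx2, one of them, had no count in 1 library. Of the 10 oligodendrocyte markers, 8 were called lower in KO-RA than in WT-RA and 4 in KO-O2 than in WT-O2, and their sums were 5207.3 to 19772 CPM in WT and 3635.1 to 6163.2 in KO. The 8 microglial markers summed to 349.21 to 415.49 CPM in all libraries, with none called in any comparison. Neuronal markers, 6 in all with none called, summed to 4566.9 to 5641.4 CPM, and the 10 vascular and meningeal markers, of which Dcn was called higher in KO-RA vs WT-RA and none in the other comparisons, to 489.7 to 808.68 CPM. Choroid plexus and ependymal markers were low in KO-RA mouse 1, at 52.631 CPM, and in KO-O2 mouse 2, at 126.22. Their part in the results below was not tested, apart from the values given without single libraries. In RNA of a whole tissue, fewer cells of a type and less RNA per cell cannot be told apart.

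Between genotypes the astrocyte genes that passed the test were all higher in the knockout, and between exposures only 1 passed. A call required a log2 fold change of at least 0.32 in size, p below 0.05 and q below 0.1, with q the Benjamini-Hochberg adjusted p over all 16637 genes in edgeR's quasi-likelihood test. In KO-RA vs WT-RA, 5 of the 34 genes were called, all higher, against 10.4% of all genes tested called in either direction and 3.75% called higher. They were Slc1a3, Glul, Gfap, Serpina3n and Osmr, which is 2 of 27 homeostatic and 3 of 7 reactive genes. In KO-O2 vs WT-O2, 3 were called, all higher, against 6.86% of all genes in either direction and 2.51% higher. These were Slc1a3, Slc1a2 and Serpina3n, 2 homeostatic genes and 1 reactive gene. Between WT-O2 and WT-RA the homeostatic gene Ppp1r3c alone was called, and it was higher, against 0.643% of all genes in either direction and 0.349% higher. Between KO-O2 and KO-RA edgeR and DESeq2 each called none of the 34, against 0.012% of all genes by edgeR. At an unadjusted p below 0.05, 3 of the 34 and 4.86% of all genes passed in edgeR.

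The median of the reactive genes was above that of the homeostatic genes in each of the 4 comparisons. The median log2 fold change of the homeostatic genes was 0.01 in WT-O2 vs WT-RA, and that of the reactive genes was 0.07. In KO-O2 vs KO-RA these medians were -0.03 and 0.14. Between the genotypes they were 0.14 and 0.36 in room air, and 0.03 and 0.23 in hyperoxia. The reactive median of 0.36 in room air is the value of Osmr. With at least 10 counts in every library, which left out Lcn2, it was 0.25 over 6 reactive genes. Over all genes tested, the median lay between -0.0089 and -0.00202 in these comparisons. Both genotype comparisons had 27 of the 34 genes on the higher side, whereas 21 of 34 were on the higher side in WT-O2 vs WT-RA and 14 of 34 in KO-O2 vs KO-RA. The comparisons share groups, so their values are given side by side and are not independent.

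**Figure D1:**
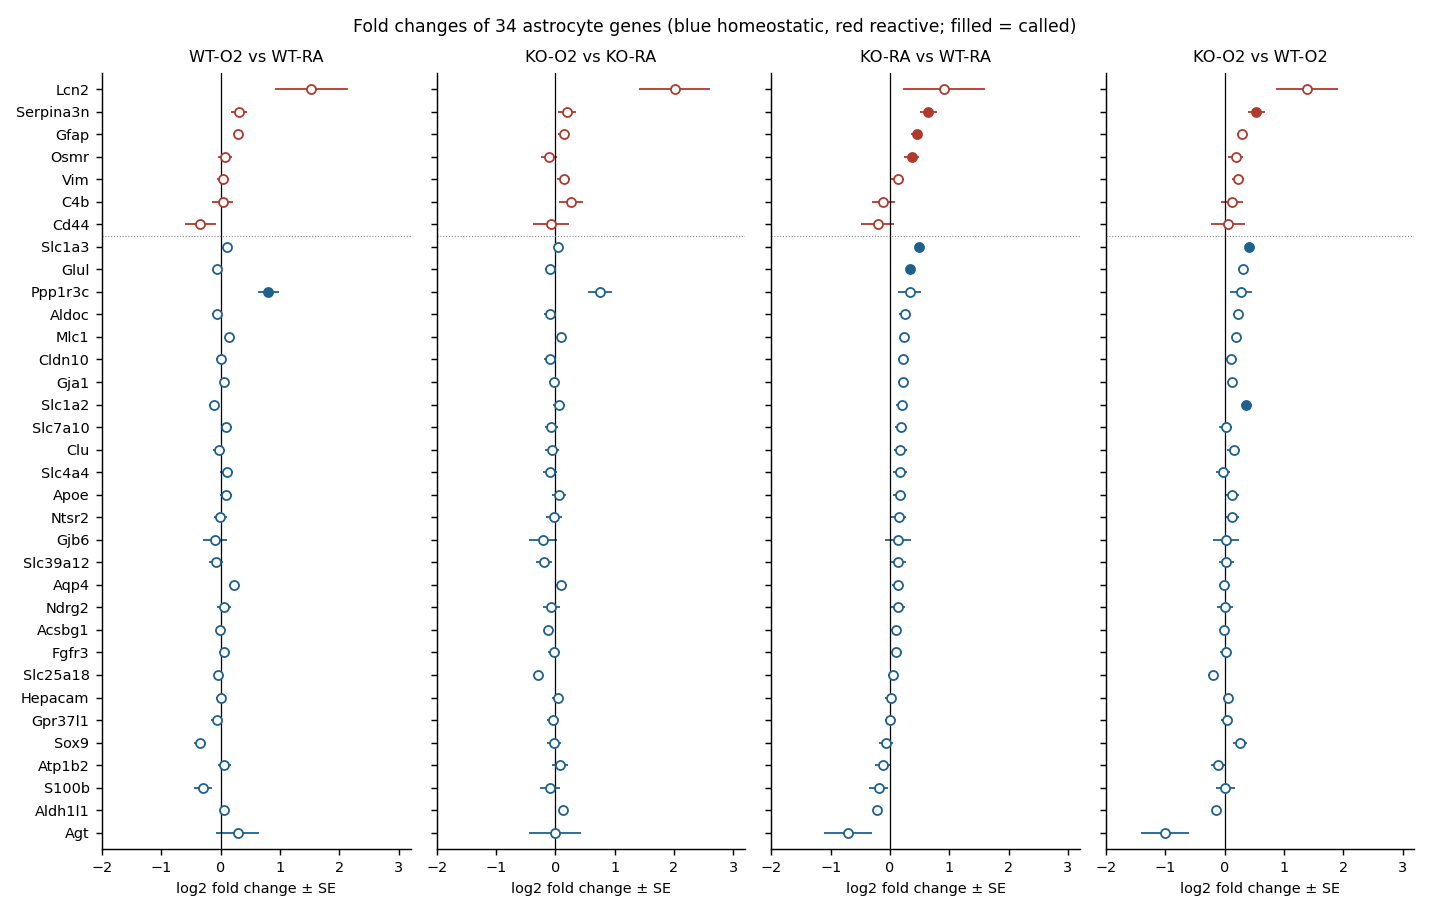
Log2 fold change (x axis) of each of the 34 astrocyte genes (y axis) in 4 comparisons, from edgeR's fit of all 14 libraries. Bars are ± 1 standard error, computed from the fold change and the F statistic. Reactive genes are red and homeostatic genes blue, and filled points mark the genes called: from left to right 1, 0, 5 and 3.

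Whether the response to hyperoxia differed between the genotypes was tested by the interaction of genotype and exposure. None of the 34 genes was called by edgeR or by DESeq2, nor was any other gene called by edgeR, so that 0% of all genes were called. At an unadjusted p below 0.05, 1 of the 34 genes and 4.05% of all genes passed in edgeR. A call in one genotype and not in the other is therefore not shown to be a difference in response for any of these genes.

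Of the 5 homeostatic genes of glutamate and amino acid handling, Slc1a3 was called between the genotypes in both exposures, Glul in room air, Slc1a2 in hyperoxia, and Slc7a10 and Slc25a18 in neither. Slc1a3 (ENSMUSG00000005360), the glutamate transporter GLAST, was counted at 607, 562, 537 and 563 CPM in WT-RA and at 677, 579, 613 and 585 CPM in WT-O2. It reached 825, 750 and 802 CPM in KO-RA and 864, 787 and 797 CPM in KO-O2. The lowest KO library lay above the highest WT library, and the exposures overlapped within each genotype. In room air the KO mean was 792 ± 38.2 CPM (SD, n = 3) and the WT mean 567 ± 29 (SD, n = 4), a log2 fold change of 0.48 with a standard error of 0.07 (edgeR, q = 0.000694). In hyperoxia the difference was 0.41 with a standard error of 0.07 (edgeR, q = 0.00314). Both calls held under every alternative tried except a fold change of at least 1.5.

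Slc1a2 (ENSMUSG00000005089), which encodes GLT-1, the main glutamate transporter of mature astrocytes, was at 2401, 2284, 2266 and 2194 CPM in WT-RA and 2433, 1984, 2152 and 1908 CPM in WT-O2. In KO-RA it was at 2927, 2287 and 2657 CPM, and in KO-O2 at 2698, 2632 and 2865 CPM. The groups did not overlap in hyperoxia, whereas in room air KO-RA mouse 2 fell inside the WT range. In hyperoxia the KO libraries exceeded the WT libraries by 0.37 on the log2 scale, with a standard error of 0.09 (edgeR, q = 0.0298). The difference in room air was 0.20 (edgeR, q = 0.207) and was not called. The call in hyperoxia was lost without KO-O2 mouse 3 (edgeR, q = 0.137) and with WT-O2 mouse 4 taken as room air (edgeR, q = 0.123).

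Glul (ENSMUSG00000026473), glutamine synthetase, was at 978, 913, 821 and 861 CPM in WT-RA and 840, 788, 934 and 867 CPM in WT-O2. It was at 1146, 1084 and 1155 CPM in KO-RA and 1109, 977 and 1094 CPM in KO-O2. The genotypes did not overlap within either exposure, while the lowest KO-O2 library lay just below the highest WT-RA library. Glul was called in room air with a log2 fold change of 0.34 and a standard error of 0.08 (edgeR, q = 0.0111). Without WT-RA mouse 3 the change fell to 0.30, under the fold required, at q = 0.0192 (edgeR). In hyperoxia the change of 0.31 passed the adjusted threshold (edgeR, q = 0.0276) and missed the fold required, which it met without WT-O2 mouse 3 or KO-O2 mouse 2, at 0.36 each (edgeR, q = 0.0225 and q = 0.0294).

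Slc7a10, an exchanger of small neutral amino acids, ranged from 30.1 to 43.0 CPM over all libraries. Slc25a18, a mitochondrial glutamate carrier, was at 47.0, 47.0 and 42.2 CPM in KO-RA and at 32.3, 36.0 and 42.8 CPM in KO-O2, which was -0.30 on the log2 scale (edgeR, q = 0.861). The exposures overlapped in Slc25a18, with KO-O2 mouse 3 above the lowest KO-RA mouse.

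For Slc1a3, the 250 bases before the transcription start are shown because this was the gene with the smallest q of the 34 in both genotype comparisons. In RefSeq's annotation of GRCm38.p6 they lie at chr15:8710808-8711057 on the minus strand, and the capitals mark the only match to the STAT consensus TTCNNNGAA, a palindromic motif that STAT factors bind in cytokine signalling.
Slc1a3: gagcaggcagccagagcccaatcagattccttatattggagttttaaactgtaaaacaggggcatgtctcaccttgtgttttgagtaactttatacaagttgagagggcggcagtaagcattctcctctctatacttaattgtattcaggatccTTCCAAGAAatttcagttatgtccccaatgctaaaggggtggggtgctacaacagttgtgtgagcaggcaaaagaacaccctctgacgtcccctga
Of the 34 genes, 29 had such a window in RefSeq, with 37 windows in all. Of these 29 genes, 5 held this motif in any of their windows, namely Acsbg1, Agt, Aldoc, Ntsr2 and Slc1a3. Over all 32851 windows of the same length, 7.02% held it, a share counted by window and not by gene. A match is a description of the sequence and no measurement of binding.

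Among the genes of energy metabolism, Ppp1r3c was the one called between exposures. Ppp1r3c (ENSMUSG00000067279) encodes a subunit that directs protein phosphatase 1 to glycogen and promotes glycogen synthesis. It was at 30.1, 27.6, 26.6 and 28.3 CPM in WT-RA and at 43.4, 51.0, 36.8 and 64.9 CPM in WT-O2. The knockouts had 37.4, 34.1 and 34.7 CPM in room air and 80.6, 43.5 and 54.3 CPM in hyperoxia. In each genotype every hyperoxia library lay above every room air library, and the spread was wider under hyperoxia, with an SD of 12.1 against 1.45 CPM in WT and 19.1 against 1.75 CPM in KO.

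The WT difference in Ppp1r3c was 0.80 on the log2 scale with a standard error of 0.17 (edgeR, q = 0.0758). The KO difference was 0.75 with a standard error of 0.20 and was not called (edgeR, q = 0.726). Their difference was -0.05 with a standard error of 0.26, and the interaction was not called. The WT call was lost without any one of WT-RA mice 2, 3 and 4, WT-O2 mice 1, 2 and 4, KO-RA mouse 2 and KO-O2 mouse 3, with edgeR q values from 0.1 to 0.223. With WT-O2 mouse 4, the WT library highest in Ppp1r3c, taken as room air, the change was 0.30 (edgeR, q = 0.754).

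The window before the start of Ppp1r3c is shown because the gene alone was called between exposures. It lies at chr19:36736605-36736854 of GRCm38.p6 on the minus strand, and the capitals mark matches on either strand to ACGTG, the core of the hypoxia response element, of which one pair overlaps in CACGTG.
Ppp1r3c: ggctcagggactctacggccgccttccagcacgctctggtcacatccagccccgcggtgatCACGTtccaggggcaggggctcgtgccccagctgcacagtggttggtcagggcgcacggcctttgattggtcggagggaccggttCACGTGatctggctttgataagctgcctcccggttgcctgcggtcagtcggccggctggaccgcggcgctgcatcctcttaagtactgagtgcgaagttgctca
This core was found once on the gene's strand and in 2 places on the other. The study's paper gives CACGTG as the class B E-box, so the letters are not particular to the hypoxia response element. Here too a match is no measurement of binding. Of the 29 genes with a window, 4 held the ACGTG core in any of their windows, namely Cd44, Cldn10, Ntsr2 and Ppp1r3c. Of all 32851 windows, 16.6% held it, again counted by window and not by gene.

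None of the remaining metabolic genes was called in edgeR's fit of all 14 libraries. Aldoc, the brain form of aldolase in glycolysis, was at 554, 458, 418 and 488 CPM in WT-RA and at 559, 571 and 576 CPM in KO-RA. The groups did not overlap, and the log2 fold change of 0.25 passed the adjusted threshold (edgeR, q = 0.0922) but missed the fold required. Without WT-RA mouse 1, the highest of its group in Aldoc, the change was 0.33 and Aldoc was called (edgeR, q = 0.0138). In Aldh1l1, a folate enzyme widely used to mark astrocytes, the direction was the opposite. Its WT-RA libraries had 57.5, 49.1, 53.3 and 55.4 CPM and its KO-RA libraries 45.7, 48.4 and 45.0 CPM, with every KO library below every WT library. The change of -0.21 passed the adjusted threshold (edgeR, q = 0.0429) and was too small to be called. Acsbg1, an acyl-CoA synthetase, stayed between 105 and 128 CPM in all libraries.

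**Figure D2:**
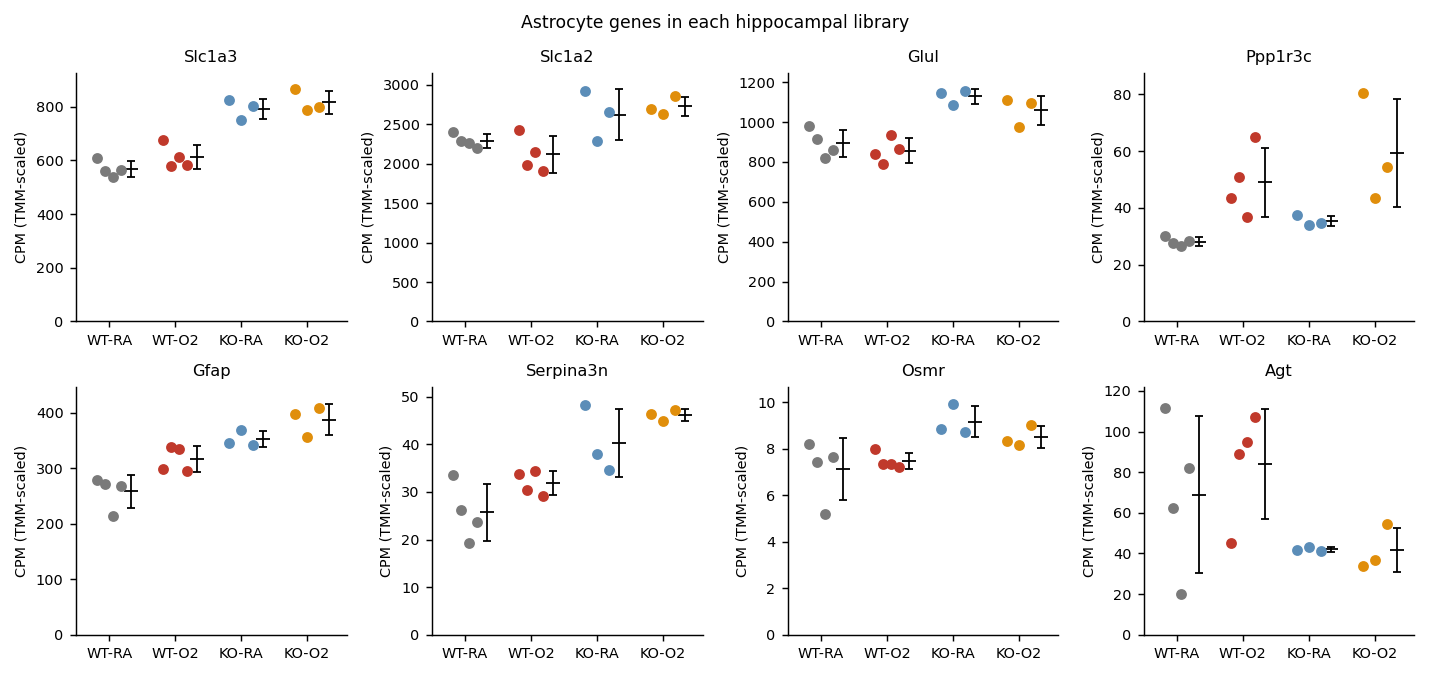
Levels of 8 astrocyte genes (y axes, CPM scaled by TMM, starting at 0) in each of the 14 libraries by group, with the group mean ± SD beside the points. For Slc1a3 all 6 KO points lie above all 8 WT points, for Ppp1r3c the hyperoxia points lie above the room air points within each genotype, and for Agt the WT points spread from 19.8 to 112 CPM.

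Water, ion and junction genes were not called in any comparison. Aqp4, the water channel of astrocyte endfeet, was at 292, 264, 250 and 256 CPM in WT-RA, 330, 330, 266 and 315 CPM in WT-O2, 325, 274 and 272 CPM in KO-RA, and 313, 282 and 335 CPM in KO-O2. The groups overlapped in all comparisons, and the WT exposure difference was 0.22 on the log2 scale (edgeR, q = 0.295). Mlc1, an endfoot membrane protein whose loss causes a leukodystrophy, was at 134, 125, 113 and 136 CPM in WT-RA, 143, 139, 139 and 138 in WT-O2, and 150, 147 and 149 in KO-RA. Its groups did not overlap in WT-O2 vs WT-RA or in either genotype comparison, and KO-RA was higher than WT-RA by 0.23 on the log2 scale, past the adjusted threshold but short of the fold required (edgeR, q = 0.0478).

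Its partner Hepacam ranged from 98.3 to 132 CPM over all libraries, with overlap everywhere. The connexin genes Gja1 and Gjb6, which form the gap junctions between astrocytes, ranged from 138 to 198 CPM and from 22.8 to 54.0 CPM. Both ends of the range of Gjb6 were WT-RA libraries. Cldn10, a claudin, was at 15.3 to 19.3 CPM in WT-RA and 19.4 to 21.9 CPM in KO-RA, without overlap and without a call. Slc4a4, a sodium bicarbonate cotransporter, ranged from 139 to 222 CPM, Atp1b2, a sodium pump subunit, from 529 to 861 CPM, and Slc39a12, a zinc transporter, from 39.3 to 65.7 CPM. For each of these 3 genes the lowest and the highest library were WT-RA mice 3 and 1.

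Of the homeostatic genes, Agt had the largest difference between genotypes and was not called. Agt (ENSMUSG00000031980), angiotensinogen, is known to be expressed more by astrocytes of the diencephalon and hindbrain than by those of the telencephalon. It was at 112, 62.4, 19.8 and 81.9 CPM in WT-RA and at 45.3, 88.8, 95.0 and 107 CPM in WT-O2. In KO-RA it was at 41.5, 43.4 and 41.1 CPM, and in KO-O2 at 34, 37.0 and 54.3 CPM. The KO libraries lay close together, the WT-RA libraries spread on both sides of them, and WT-O2 mouse 1 fell inside the KO-O2 range. KO was lower than WT by -0.71 on the log2 scale in room air (edgeR, q = 0.318) and by -1.01 in hyperoxia (edgeR, q = 0.184). Without WT-RA mouse 3, Agt was called lower in KO-RA, by -1.02 (edgeR, q = 0.0255), and lower in KO-O2, by -1.0 (edgeR, q = 0.0287). It was also called in hyperoxia without WT-O2 mouse 1 (edgeR, q = 0.0964) and with the 2 groups fitted alone (edgeR, q = 0.0435).

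Some of the WT libraries at the ends of the range of Agt were also at the ends of the range of the thalamic markers. In WT-RA these markers summed to 746, 334, 111 and 224 CPM in mice 1 to 4, so that mouse 1 was highest and mouse 3 lowest in both. The WT-O2 sums were 272, 264, 432 and 584 CPM, and mouse 4 was highest in both, while mouse 1 was lowest in Agt and mouse 2 in the markers. The KO libraries lay between 155.44 and 176.44 CPM. Oligodendrocyte markers followed the order of Agt in both WT groups. In mice 1 to 4 they summed to 19772, 12370, 8063.3 and 16997 CPM in WT-RA and 5207.3, 8132.8, 10645 and 13317 in WT-O2. So did the choroid plexus and ependymal markers, at 2466.7, 1390.3, 962.21 and 2020.8 CPM and at 1005.2, 1394.9, 1450.3 and 1523.5. Neither list followed the order of Agt in KO-RA or KO-O2. The part of all these markers in the values of Agt was not tested.

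**Figure D3:**
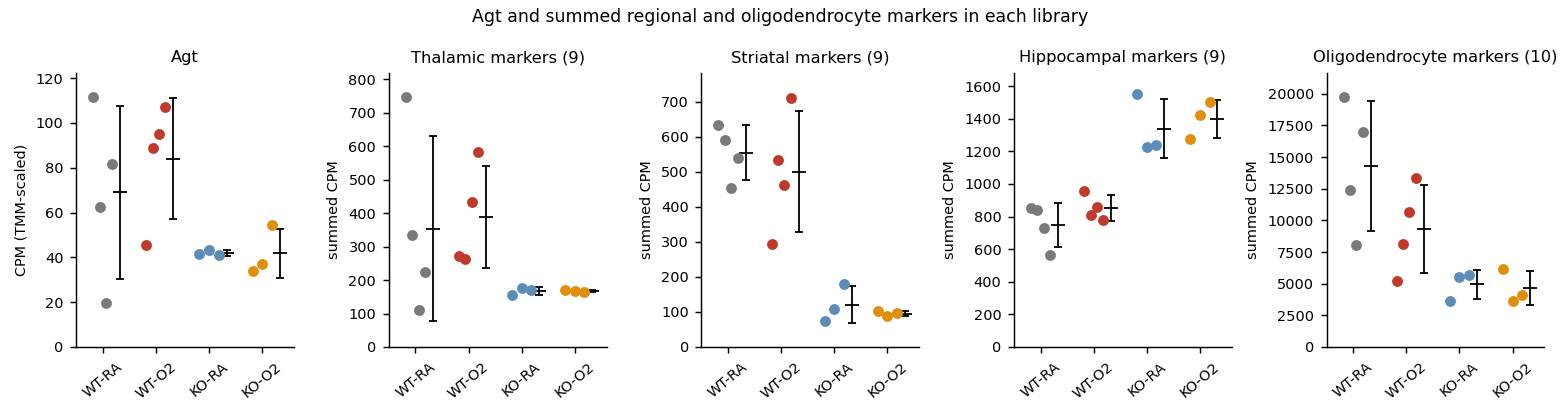
Agt (CPM) and the summed CPM of 9 thalamic, 9 striatal, 9 hippocampal and 10 oligodendrocyte markers (y axes, starting at 0) in each of the 14 libraries by group, with the group mean ± SD. WT libraries spread from 111.2 to 745.61 CPM in the thalamic sum while the KO libraries stay within 155.44 to 176.44, and the striatal and hippocampal sums do not overlap between genotypes.

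The other homeostatic genes for secreted proteins were not called. Apoe, the main apolipoprotein of the brain, ranged from 939 to 1437 CPM, and Clu, another apolipoprotein, from 528 to 777 CPM, with overlap in all comparisons. S100b, a calcium-binding protein that is also present in oligodendrocytes, was at 88.8, 72.6, 52.9 and 88.3 CPM in WT-RA and 48.9, 57.7, 64.3 and 75.5 CPM in WT-O2, with overlap and a log2 fold change of -0.30 (edgeR, q = 0.449). Its KO libraries had 65.4, 67.6 and 65.9 CPM in room air and 70.3, 56.4 and 59.9 CPM in hyperoxia.

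The regulators and receptors of the list gave no call with edgeR. Sox9, a transcription factor of astrocyte fate, was at 36.4, 32.2, 28.4 and 39.6 CPM in WT-RA and 27.7, 26.8, 28.1 and 24.6 CPM in WT-O2. All WT-O2 values lay below the WT-RA values, by -0.35 on the log2 scale (edgeR, q = 0.193), and DESeq2 called the gene lower (q = 0.0836). In the knockouts Sox9 was at 35.1, 34.7 and 27.6 CPM in room air and 29.5, 30.1 and 36.5 CPM in hyperoxia, which overlapped. Fgfr3, a growth factor receptor, ranged from 85.0 to 113 CPM, the neurotensin receptor Ntsr2 from 103 to 153 CPM, Gpr37l1, an orphan receptor, from 144 to 199 CPM, and Ndrg2 from 355 to 597 CPM. For each of these 4 genes WT-RA mouse 3 was the lowest and WT-RA mouse 1 the highest of all libraries.

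Of the reactive genes, Gfap and Serpina3n separated the genotypes. Gfap (ENSMUSG00000020932), the intermediate filament of astrocytes, was at 278, 272, 214 and 268 CPM in WT-RA and at 298, 338, 335 and 294 CPM in WT-O2. It was at 345, 369 and 342 CPM in KO-RA and at 398, 355 and 409 CPM in KO-O2. All KO libraries lay above all WT libraries, and WT-O2 lay above WT-RA without overlap. The room air groups, at 352 ± 14.6 (SD, n = 3) and 258 ± 29.5 CPM (SD, n = 4), differed by 0.45 on the log2 scale with a standard error of 0.09 (edgeR, q = 0.00521). In hyperoxia the genotypes differed by 0.29, past the adjusted threshold but short of the fold required (edgeR, q = 0.0691). Without WT-O2 mouse 2, WT-O2 mouse 3 or KO-O2 mouse 2 the difference was 0.33, 0.33 or 0.35 and Gfap was called (edgeR, q from 0.0679 to 0.0836).

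The exposure differences of Gfap were 0.29 in WT (edgeR, q = 0.158) and 0.14 in KO (edgeR, q = 0.997), and neither was called. Without WT-RA mouse 1 the WT difference was 0.33 and was called (edgeR, q = 0.0944). The Gfap call between genotypes in room air held with each library left out in turn.

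Serpina3n (ENSMUSG00000021091), a secreted protease inhibitor and marker of reactive astrocytes, was at 33.5, 26.2, 19.3 and 23.8 CPM in WT-RA and 33.7, 30.4, 34.4 and 29.2 CPM in WT-O2. It was at 48.2, 37.9 and 34.5 CPM in KO-RA and 46.4, 44.8 and 47.3 CPM in KO-O2. Every KO library lay above every WT library, by a narrow margin between KO-RA mouse 3 and WT-O2 mouse 3. KO was higher by 0.65 on the log2 scale with a standard error of 0.15 in room air (edgeR, q = 0.0111), the one call that also met a fold change of 1.5. In hyperoxia it was higher by 0.53 with a standard error of 0.14 (edgeR, q = 0.0437). The call in hyperoxia was lost without WT-O2 mouse 2, WT-O2 mouse 4, KO-O2 mouse 1 or KO-O2 mouse 3 (edgeR, q from 0.107 to 0.143) and with WT-O2 mouse 4 as room air (edgeR, q = 0.113). Its exposure differences were 0.31 in WT (edgeR, q = 0.369) and 0.20 in KO (edgeR, q = 0.997), and without WT-RA mouse 1 the WT difference was 0.47 and was called (edgeR, q = 0.0805).

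Osmr (ENSMUSG00000022146), a receptor subunit for oncostatin M, was at 8.22, 7.43, 5.19 and 7.64 CPM in WT-RA, 7.99, 7.35, 7.36 and 7.22 CPM in WT-O2, 8.84, 9.93 and 8.72 CPM in KO-RA, and 8.34, 8.14 and 9.04 CPM in KO-O2. The genotypes did not overlap within either exposure. The room air difference of 0.36 with a standard error of 0.13 was close to the threshold (edgeR, q = 0.0943). It was lost with any library except WT-RA mouse 1 left out, at edgeR q values from 0.103 to 0.27, and also with library size alone (edgeR, q = 0.106), no filter on low counts (edgeR, q = 0.117), the 2 groups alone (edgeR, q = 0.235) and q below 0.05. The hyperoxia difference was 0.19 (edgeR, q = 0.497).

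The window before the start of Gfap is given beside that of Slc1a3 because both genes were called in room air and one encodes the reference marker of reactive astrocytes. It lies at chr11:102897201-102897450 of GRCm38.p6 on the minus strand and holds no match to TTCNNNGAA or ACGTG, which says only that these letters are not in these 250 bases.
Gfap: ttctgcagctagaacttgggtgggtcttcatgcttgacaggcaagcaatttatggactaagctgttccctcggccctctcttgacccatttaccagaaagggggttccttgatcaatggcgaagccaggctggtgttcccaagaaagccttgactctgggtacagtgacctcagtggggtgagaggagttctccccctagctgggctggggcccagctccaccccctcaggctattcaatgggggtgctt

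The other reactive genes were not called. Vim, the intermediate filament vimentin, was at 52.5, 49.3, 56.4 and 54.9 CPM in WT-RA, 54.8, 57.6, 54.1 and 52.7 CPM in WT-O2, 49.6, 69.4 and 55.5 CPM in KO-RA, and 70.3, 53.7 and 68.3 CPM in KO-O2. All groups overlapped, and its exposure differences were 0.04 in WT (edgeR, q = 0.92) and 0.14 in KO (edgeR, q = 0.997). C4b, a complement component, ranged from 7.63 to 14.7 CPM, both ends in WT-RA, and Cd44, a hyaluronan receptor, from 3.58 to 10.5 CPM, with overlap in each comparison.

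Lcn2, an iron-binding protein secreted in inflammation, was near the limit of detection. The library counts of this gene were 8, 6, 1 and 4 for WT-RA, 5, 7, 25 and 19 in WT-O2, 5, 12 and 10 in KO-RA, and 20, 57 and 30 in KO-O2. In KO the hyperoxia libraries lay above the room air libraries without overlap, and in WT mice 3 and 4 of the hyperoxia group stood above the rest. With so few counts no fold change is given, and the test did not call Lcn2 between exposures in KO (edgeR, q = 0.861) or in WT (edgeR, q = 0.323).

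Groups that did not overlap were counted for all 34 genes and set beside the share over all genes tested. In KO-RA vs WT-RA, 10 of 34 did not overlap, 9 higher and Aldh1l1 lower, against 19.6% of all genes, of which 8.62% were higher and 11% lower. In KO-O2 vs WT-O2 the count was 9 of 34, all higher, against 19% of all genes and 8.53% higher. WT-O2 and WT-RA were apart in 4 of 34, namely Mlc1, Ppp1r3c and Gfap higher and Sox9 lower, against 5.99% of all genes, with 2.95% higher and 3.04% lower. KO-O2 and KO-RA were apart in 4 of 34, namely Ppp1r3c and Lcn2 higher and Aldoc and Acsbg1 lower, against 11.8% of all genes, with 5.52% higher and 6.23% lower.

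In WT-RA most of the 34 genes had the same lowest and the same highest mouse. WT-RA mouse 3 was the lowest of its group for 29 of the 34 genes, 24 homeostatic and 5 reactive, against 29.4% of all genes tested. WT-RA mouse 1 was the highest for 29, against 29.7% of all genes. Cd44 and Vim were instead highest in WT-RA mouse 3. Sums of the thalamic, striatal, choroid plexus and ependymal, oligodendrocyte, and vascular and meningeal markers were also highest in WT-RA mouse 1 and lowest in mouse 3. The neuronal sum ran the other way, lowest in mouse 1 at 4659.3 CPM and highest in mouse 3 at 5641.4. Hippocampal markers were highest in mouse 1 and lowest in mouse 4, and microglial markers highest in mouse 4 and lowest in mouse 1. KO-O2 mouse 2 was the lowest of its group for 20 of the 27 homeostatic genes, against 37.8% of all genes. In KO-RA the lowest mouse was shared less, with mice 1, 2 and 3 lowest for 11, 13 and 10 of the 34, and in WT-O2 the counts for mice 1 to 4 were 14, 5, 5 and 10. The summed homeostatic genes were at 10105, 8941, 7900 and 9118 CPM in WT-RA mice 1 to 4, and at 8664 to 9344 CPM in WT-O2, 9867 to 10556 CPM in KO-RA and 9628 to 10710 CPM in KO-O2. The summed reactive genes, of which Gfap is the largest term, were at 314 to 392.2 CPM in WT-RA, 398 to 456 in WT-O2, 460 to 504 in KO-RA and 483 to 554 in KO-O2. Sums of the reactive genes thus did not overlap between WT-RA and WT-O2, or between the genotypes. Taken singly, only Gfap of the 7 reactive genes was without overlap between WT-RA and WT-O2, and 3 of the 7 were in each genotype comparison.

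The coefficient of variation between mice, averaged over the groups, had a median of 8.55% for the homeostatic and 12.8% for the reactive genes. It was largest for Lcn2, at 55.7%, followed by Agt at 29.3%, Cd44 at 24.1% and Gjb6 at 20.3%. The smallest was that of Aldh1l1, at 4.84%.

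**Figure D4:**
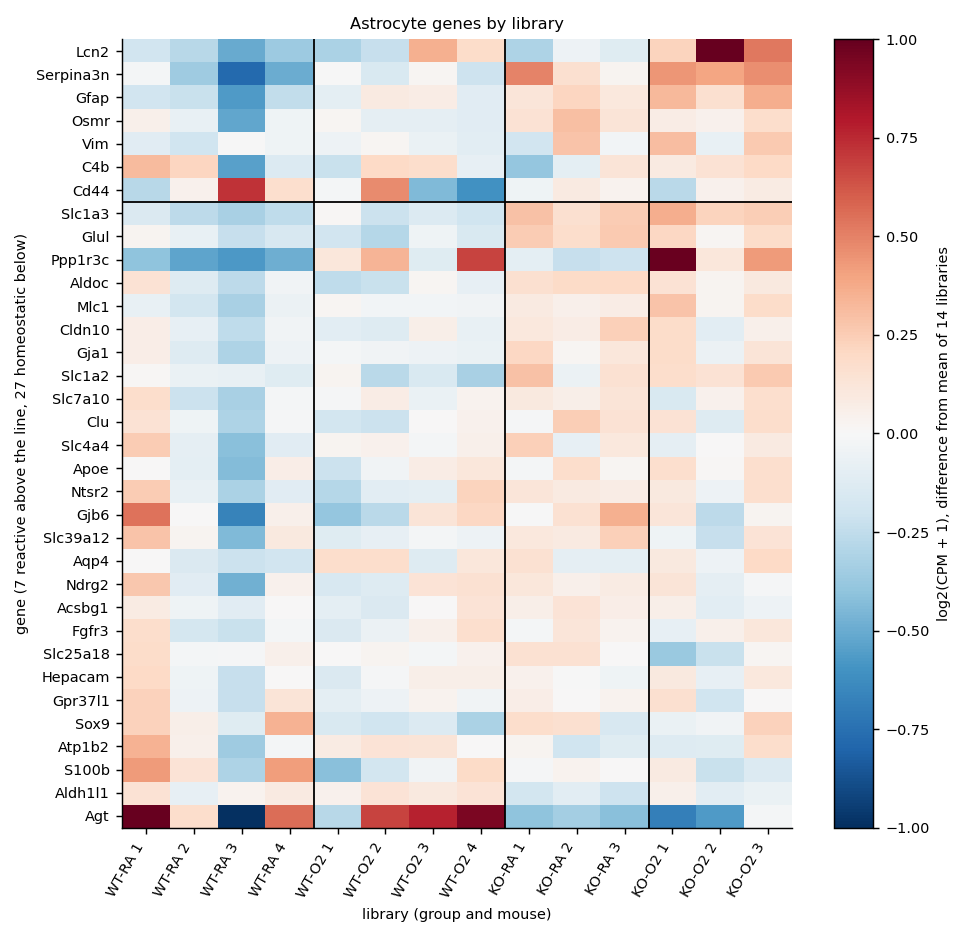
Expression of the 34 astrocyte genes (y axis, reactive above and homeostatic below the horizontal line) in the 14 libraries (x axis, by group and mouse), as log2(CPM + 1) minus the mean of the gene over all libraries, with colours ending at -1 and 1. WT-RA mouse 3 is low for 29 of the 34 genes within its group, and Slc1a3, Glul, Gfap and Serpina3n are higher in the KO than in the WT libraries.

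A further 50 genes known for their expression in astrocytes were listed beside these 34. In KO-RA vs WT-RA, 15 of the 50 were called higher and 1 lower, beside 3.75% of all genes called higher and 10.4% in either direction. In KO-O2 vs WT-O2, 6 were called higher and none lower, beside 2.51% of all genes higher and 6.86% in either direction. The highest in room air were Fabp7, a fatty acid binding protein of immature astrocytes and radial glia, with a log2 fold change of 0.61 (edgeR, q = 0.0194), and Gldc of the glycine cleavage system, with 0.53 (edgeR, q = 0.00882). The urea transporter Slc14a1 was higher by 0.52 in room air (edgeR, q = 0.0138) and by 0.68 in hyperoxia (edgeR, q = 0.00404). Rorb, a nuclear receptor found in astrocytes and in thalamic and cortical neurons, was the 1 gene called lower in KO-RA, by -0.86 (edgeR, q = 0.00144). In WT-O2 vs WT-RA, 3 were called higher and 1 lower, beside 0.349% and 0.295% of all genes. The higher genes were Gpc4, a glypican that promotes synapse formation, by 0.45 (edgeR, q = 0.0642), Entpd2, an ectonucleotidase, by 0.35 (edgeR, q = 0.0758), and Mfge8, a bridging protein for phagocytosis, by 0.33 (edgeR, q = 0.0642). Rorb was lower by -0.53 (edgeR, q = 0.094). Between the KO exposures none of the 50 was called by edgeR, with 5 at an unadjusted p below 0.05, beside 4.86% of all genes.

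Of 37 further genes used to describe reactive astrocytes, 35 were tested, and Slc10a6 and Tgm1 did not pass the filter on low counts. In KO-RA vs WT-RA, 6 were called, all higher, beside 10.4% of all genes in either direction and 3.75% higher. They were led by the pentraxin Ptx3 at 1.13 on the log2 scale (edgeR, q = 0.0133) and the complement inhibitor Serping1 at 0.72 (edgeR, q = 0.021). Ptx3 had few counts, with 23, 23, 29 and 17 in WT-RA and 63, 37 and 50 in KO-RA. Ptgs2, cyclooxygenase 2, which is also abundant in hippocampal neurons, was higher by 0.58 in room air (edgeR, q = 0.0563) and by 0.84 in hyperoxia (edgeR, q = 0.0127), where it was the 1 gene called of the 35, beside 6.86% of all genes. Between exposures none of the 35 was called by edgeR in either genotype, with 3 at an unadjusted p below 0.05 in WT, beside 12.2% of all genes, and 2 in KO, beside 4.86%.

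The part of the striatal and hippocampal markers in the genotype differences of Slc1a3, Glul, Gfap and Serpina3n was not tested.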

How the data were processed

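Hippocampal polyA RNA of 14 mice was sequenced as 150-base paired-end reads, 1 library per mouse. The deposited values are the authors' estimated counts for each gene, made with Kallisto on mouse GRCm39 and summed with tximport, and the submitters' processing notes also name DESeq2. Versions are not given in the sources used here. In each library 41% to 43.2% of the values are not whole, so the estimated counts were rounded. Libraries summed to between 27272270 and 28257496 counts, and a gene of few counts, such as Lcn2, carries counting error beside the spread between mice.

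Samples were grouped by the titles of their records. Genes were filtered with edgeR's filterByExpr function, scaled by TMM factors and modelled over all 14 libraries with a coefficient for each group (edgeR 4.0.16, R 4.3.3). The 4 comparisons and the interaction were tested two-sided by quasi-likelihood F-tests, and p was adjusted over 16637 genes by the Benjamini-Hochberg method (q). Calls required a log2 fold change of at least 0.32 in size, p below 0.05 and q below 0.1, the thresholds of the study's methods. Standard errors were computed as the size of the log2 fold change divided by the square root of the F statistic. CPM are scaled by TMM. The fit was tested on simulated data.

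The 34 genes and all marker lists were chosen with earlier results of these data known. All 34 are named. Those called, and the most used markers, are given in every library, and of the further lists at most the 3 largest called changes in each direction with a mean of at least 1 CPM are named. The description of all groups of genes is by counts and medians, with no set test. Alternatives were DESeq2 1.42.0, DESeq2's size factors or library size alone, no filter or at least 10 counts in every library, the 2 groups alone, a fold change of 1.5, q below 0.05, WT-O2 mouse 4 as room air, and each library left out in turn. Promoter windows are from RefSeq on GRCm38.p6, not the authors' build, so coordinates are given for 3 of these windows on GRCm38.p6 and for no gene. One further marker list is not reported here.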

Additional observations from a re-analysis of the deposited data

Results flagged for a closer look

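Gfap in WT-RA mouse 3 stood apart from its group, at 214.5 CPM where the other 3 WT-RA mice had 268.4 to 278.3 CPM. Its gap to the nearest mouse was 0.844 of the range of the group, above Dixon's critical value for 4 samples. This was 1 of 68 groups of 4 mice that were looked at, and chance alone would mark about 1 in 20. Without this mouse Gfap was still called between the genotypes in room air.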

How the results depend on the processing

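No paired analysis was possible because the labels give no replicate numbers that mice of different groups share. In WT-O2 vs WT-RA the number of astrocyte genes past the thresholds, 1 in the report, was 2 with DESeq2, 0 with the 2 groups alone, 0 with q below 0.05, 0 with WT-O2 mouse 4 as room air, and 0 to 3 with 1 library left out, with 3 without WT-RA mouse 1. Over all genes the 107 calls became 304, 20, 22 and 6 in these 4 settings, and 272 without WT-RA mouse 1. In KO-RA vs WT-RA the count of 5 was 1 at a fold change of 1.5, and 4 with library size alone, with no filter on low counts and with q below 0.05, where Osmr was lost. Osmr was also lost with any library except WT-RA mouse 1 left out. Without WT-RA mouse 3, Glul was lost too and Agt was called lower, so the calls were no longer all higher. In KO-O2 vs WT-O2 the count of 3 was 0 at a fold change of 1.5, 1 with WT-O2 mouse 4 as room air, and 1 to 6 with 1 library left out, with 1 without KO-O2 mouse 3 and 6 without WT-O2 mouse 3 or KO-O2 mouse 2. The cause of these shifts was not tested. KO-O2 vs KO-RA and the interaction gave 0 astrocyte genes under every alternative run.

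In KO-O2 vs WT-O2 the median log2 fold change, 0.03 for the homeostatic and 0.23 for the reactive genes, was 0.0134 to 0.12 and 0.18 to 0.34 with 1 library left out, the highest values being without KO-O2 mouse 2. In KO-RA vs WT-RA the homeostatic median ran from 0.0702 to 0.248 and the reactive median from 0.245 to 0.449 with 1 library left out. Both were lowest without WT-RA mouse 3 and highest without WT-RA mouse 1. The homeostatic medians between exposures were close to 0 and changed sign, in WT from 0.01 to -0.05 without WT-RA mouse 3 and to -0.03 with WT-O2 mouse 4 as room air, and in KO from -0.03 to 0.03 without KO-O2 mouse 2. A pair of alternatives was chosen after seeing the data. Without the 2 KO libraries low in choroid plexus markers, the count in KO-O2 vs WT-O2 was 6, its medians were 0.13 and 0.35, and the homeostatic median in KO-O2 vs KO-RA turned from -0.03 to 0.0493. Without the 2 WT libraries highest in thalamic markers, the count in WT-O2 vs WT-RA was 2, Gfap and Serpina3n in place of Ppp1r3c, and the homeostatic median in KO-O2 vs WT-O2 was 0.12. The difference of Agt in WT-O2 vs WT-RA, 0.29, was the one change of a single gene among those quoted that reversed, to -0.003485 with WT-O2 mouse 4 as room air and to a range of -0.0217 to 0.62 with 1 library left out, negative without WT-RA mouse 3. Other scalings moved the median of all genes by at most 0.0221 in size.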
